A study of Canis lupus familiaris with 4 samples.

Results

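Signals of the vascular endothelial growth factor (VEGF) system were examined in 4 canine glioblastoma lines. The set comprised 8 genes: the ligands VEGFA, VEGFB, VEGFC and PGF, the receptors FLT1 and KDR, and the co-receptors NRP1 and NRP2. Every probe set that the array annotation assigns to exactly 1 of these symbols was included, which gave 17 probe sets of the 29254 that carry 1 symbol. These 29254 probe sets cover 15115 genes in all. The lines were J3T-2A, which is J3T-2 overexpressing annexin A2 (ANXA2), and J3T-1shA, which is J3T-1 with ANXA2 silenced by a short hairpin RNA. Their parental lines were J3T-1, which the authors report as high in ANXA2, and J3T-2, which they report as low. Both are subclones of one canine tumour line grown in medium with serum. RNA from each line was hybridized to 1 array, so there were no replicates and no ratio carries a test. The precision is limited by having 1 array per line. No array of a control vector was analysed here, and whether the modified lines are single clones is not given in the sources used here.

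VEGF ligands are secreted proteins that make endothelial cells divide, migrate and open their junctions, and VEGFA is the ligand that low oxygen induces and that drives the dense abnormal vessels of glioblastoma. KDR is the receptor that carries most of this signal in endothelium, whereas FLT1 binds VEGFA tightly with weak kinase activity and also binds VEGFB and PGF. NRP1 and NRP2 have no kinase, bind VEGF as well as class 3 semaphorins, and hand the ligand to the kinase receptors. Tumour cells are mainly known as a source of the ligands, but glioma cells can also carry FLT1 and the neuropilins.

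The signals are MAS 5.0 intensities on a linear scale, and the trimmed mean of each array was 495.8 to 496.0. A signal of 250 was used as the limit for reading a value, which 35.2% to 35.9% of probe sets reached per array, and the median signal was 101.8 to 106.5. The targeted gene did not check the labels. The brightest ANXA2 probe set had 28774.6 on the array labelled J3T-2A against 30102.5 for J3T-2, and 30092.9 for J3T-1shA against 28656.0 for J3T-1, with log2 ratios of -0.07 and 0.07. The second, as bright, had 35650.8 for J3T-2A against 30310.9 for J3T-2 (log2 0.23), the reported direction. It had 25725.4 for J3T-1shA against 24127.5 for J3T-1 (log2 0.09), the opposite direction. J3T-1 was lower than J3T-2 by both probe sets (log2 -0.07 and -0.33), also opposite to the reported levels. These signals lie near the top of the scale, where the highest signal of any array was 46646.0, and whether this hides a difference was not tested. Lines are therefore named below by their labels only. Of 7 glial and glioma markers on the array, 5 reached 250, namely SOX2 (936.8 to 1662.5), VIM, CD44, SLC1A3 (1996.2 to 5505.5) and NES, whereas GFAP (8.2 to 21.6) and S100B (12.7 to 33.6) were near 0 on every array. Defining endothelial markers were also dim: CDH5 had 64.4 to 87.6 and VWF 17.9 to 68.8. Of 12 endothelial markers, 2 reached 250 on any array, EGFL7 (400.3 to 642.5) and PECAM1, which had 161.0 on the array labelled J3T-2A, 1.0 for J3T-1shA, 37.0 for J3T-1 and 773.2 for J3T-2. The summed endothelial signal was 1264.0 for J3T-2A, 1300.1 for J3T-1shA, 1059.2 for J3T-1 and 1845.4 for J3T-2. Of 8 macrophage markers, C1QA alone reached 250, and PTPRC had 11.5 to 35.1. Of 6 pericyte and fibroblast markers, 3 reached 250, with LUM at 14940.1 to 29213.0, while the pericyte markers PDGFRB (16.8 to 84.9) and RGS5 (11.5 to 30.2) were dim. Of these marker lists, SLC1A3 was 2.003-fold higher in J3T-2A than in J3T-2, barely past 2-fold, and 2.27-fold higher in J3T-1shA than in J3T-1. NES and the fibroblast marker DCN were over 2-fold higher in J3T-1shA than in J3T-1. PECAM1 was over 2-fold lower in J3T-2A than in J3T-2. With signals under 250 raised to 250, NES was 1.38-fold higher and PECAM1 3.09-fold lower in these pairs. Between the parental lines, PECAM1, DCN (387.9 against 1292.0) and PDGFRA (88.9 against 352.7) were over 2-fold lower in J3T-1 than in J3T-2. With the J3T-1 signals raised to 250, PECAM1 was 3.09-fold and PDGFRA 1.41-fold lower. C1QA (661.5 against 317.4) was over 2-fold higher in J3T-1. The part of these markers in the results below was not tested. In bulk RNA, fewer cells of a type and less RNA per cell cannot be told apart.

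Of the 17 probe sets, 4 reached 250 on all 4 arrays, 8 on some arrays and 5 on none. The genes VEGFA, VEGFB, FLT1, NRP1 and NRP2 were readable on at least 1 array, and VEGFC, PGF and KDR on none. Just inside the limit lay an NRP1 probe set with 251.2 on the array labelled J3T-2, and just outside it the second VEGFA probe set with 246.4 on the array labelled J3T-2A. Probe sets of a gene are numbered here from the brightest mean signal downwards, and the first stands for the gene. As a measure of error within an RNA sample, the log2 ratios of the first and second probe sets of a gene were compared over 3695 to 3801 genes, and their difference had an SD of 0.29 to 0.40 in the 6 pairs of arrays. This spread does not cover variation between cultures. A fold against a signal under 250 is not a measured size, so such folds are also given with signals under 250 raised to 250, a setting chosen after seeing the data. A step between arrays is described as beyond the spread where it was over 2 SD.

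VEGFA, the main endothelial growth factor of the family, was bright in every line and lowest in the line labelled J3T-1shA. Its first probe set had a signal of 4039.5 for J3T-2A, 1634.6 for J3T-1shA, 4725.1 for J3T-1 and 4469.9 for J3T-2. The lines other than J3T-1shA therefore lay close together, and the steps from J3T-1 to J3T-2 (log2 0.08) and from J3T-2 to J3T-2A (log2 0.15) were within the spread. The last step, down to J3T-1shA, was 1.31 on the log2 scale and beyond it. The second probe set, designed on another sequence, had 246.4 for J3T-2A, 135.3 for J3T-1shA, 282.7 for J3T-1 and 300.0 for J3T-2. It was also lowest for J3T-1shA, with the other lines within 1.22-fold of one another, but its signals lie so close to the limit that it gives no second reading of the size.

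VEGFB, a ligand of FLT1 that is linked to heart and fat tissue more than to vessel growth, was bright everywhere and differed least. Its first probe set had 2424.6 for J3T-2A, 2609.9 for J3T-1shA, 1874.8 for J3T-1 and 2822.8 for J3T-2. The line labelled J3T-1 was the lowest, and no step between neighbours was beyond the spread. The second probe set had 483.6 for J3T-2A, 400.2 for J3T-1shA, 268.5 for J3T-1 and 442.6 for J3T-2, again lowest for J3T-1. By this probe set the ratio of J3T-2A over J3T-1 (log2 0.85) was beyond the spread, and by the first (log2 0.37) it was not. The whole span was 1.51-fold by the first probe set and 1.80-fold by the second.

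VEGFC, the growth factor of lymphatic vessels, had 11.4 for J3T-2A, 39.6 for J3T-1shA, 13.1 for J3T-1 and 10.4 for J3T-2 by its 1 probe set, all far under the median signal of the arrays. PGF, placental growth factor, which binds FLT1 but not KDR, had 98.2 for J3T-2A, 154.7 for J3T-1shA, 93.3 for J3T-1 and 126.4 for J3T-2. Both genes were highest on the array labelled J3T-1shA, but signals at this level were not read as differences. Whether these probe sets respond to their transcripts was not tested.

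FLT1, the decoy-like VEGF receptor, showed the widest span of the genes that could be read, and 3 of 3 probe sets gave the same order of lines. Its first probe set had 1179.5 for J3T-2A, 110.1 for J3T-1shA, 1020.9 for J3T-1 and 1735.7 for J3T-2. The line labelled J3T-1shA stood alone under the limit, close to the median of its array, and the line labelled J3T-2 was the brightest. The second probe set had 950.1 for J3T-2A, 127.3 for J3T-1shA, 925.6 for J3T-1 and 1403.4 for J3T-2. The dimmest had 428.2 for J3T-2A, 84.5 for J3T-1shA, 366.9 for J3T-1 and 686.8 for J3T-2. The dimmest probe set was designed on another sequence than the first and second, which share one. By the first probe set, the steps from J3T-2 to J3T-2A (log2 0.56) and from J3T-2A to J3T-1 (log2 0.21) were within the spread, and the step down to J3T-1shA (log2 3.21) was beyond it. By the dimmest probe set the step from J3T-2 to J3T-2A (log2 0.68) was beyond the spread as well, and by the second (log2 0.56) it was not. J3T-1 and J3T-2 are not neighbours in this order. The ratio of J3T-1 over J3T-2 was beyond the spread by the first (log2 -0.77) and dimmest (log2 -0.90) probe sets. By the second (log2 -0.60) it was within the spread.

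KDR, the main signalling receptor of endothelium, was under the limit in every line. Its 1 probe set had 55.5 for J3T-2A, 91.6 for J3T-1shA, 22.4 for J3T-1 and 45.2 for J3T-2, all below the median of the arrays. FLT4, the receptor for VEGFC, and VEGFD, another ligand of FLT4, were likewise under 250 on all arrays, at 114.7 to 127.8 and 37.5 to 117.4. Of the receptor kinases of the family, FLT1 was therefore the one that could be compared between lines.

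NRP1, a co-receptor for VEGFA and receptor for SEMA3A, was brightest in the line labelled J3T-2 by all 4 of its probe sets and lowest in that labelled J3T-1. The first probe set had 237.4 for J3T-2A, 238.8 for J3T-1shA, 201.9 for J3T-1 and 575.9 for J3T-2. The array labelled J3T-2 alone reached 250, its step down to J3T-1shA (log2 1.27) was beyond the spread, and the order of the other lines was not. The second probe set had 287.8 for J3T-2A, 240.4 for J3T-1shA, 160.4 for J3T-1 and 441.7 for J3T-2. The remaining NRP1 probe sets had 47.0 to 170.8 on the arrays labelled J3T-2A, J3T-1shA and J3T-1, and reached the limit on that labelled J3T-2 alone, at 251.2 and 267.9. PECAM1, given above, was also brightest on the array labelled J3T-2, as was FLT1, and its part in the signals of NRP1 and FLT1 was not tested.

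NRP2, the co-receptor for VEGFC and receptor for SEMA3F, was bright in every line by its first probe set. This had 1066.9 for J3T-2A, 1672.3 for J3T-1shA, 2378.6 for J3T-1 and 1621.1 for J3T-2. The line labelled J3T-1 was the highest and that labelled J3T-2A the lowest, with J3T-1shA and J3T-2 level with each other (log2 0.04). Among neighbours, the step from J3T-2 to J3T-2A (log2 0.60) was beyond the spread. The other NRP2 probe sets had 9.9 to 77.3 and gave no reading, so the pattern of NRP2 rests on 1 probe set.

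**Figure D1:**
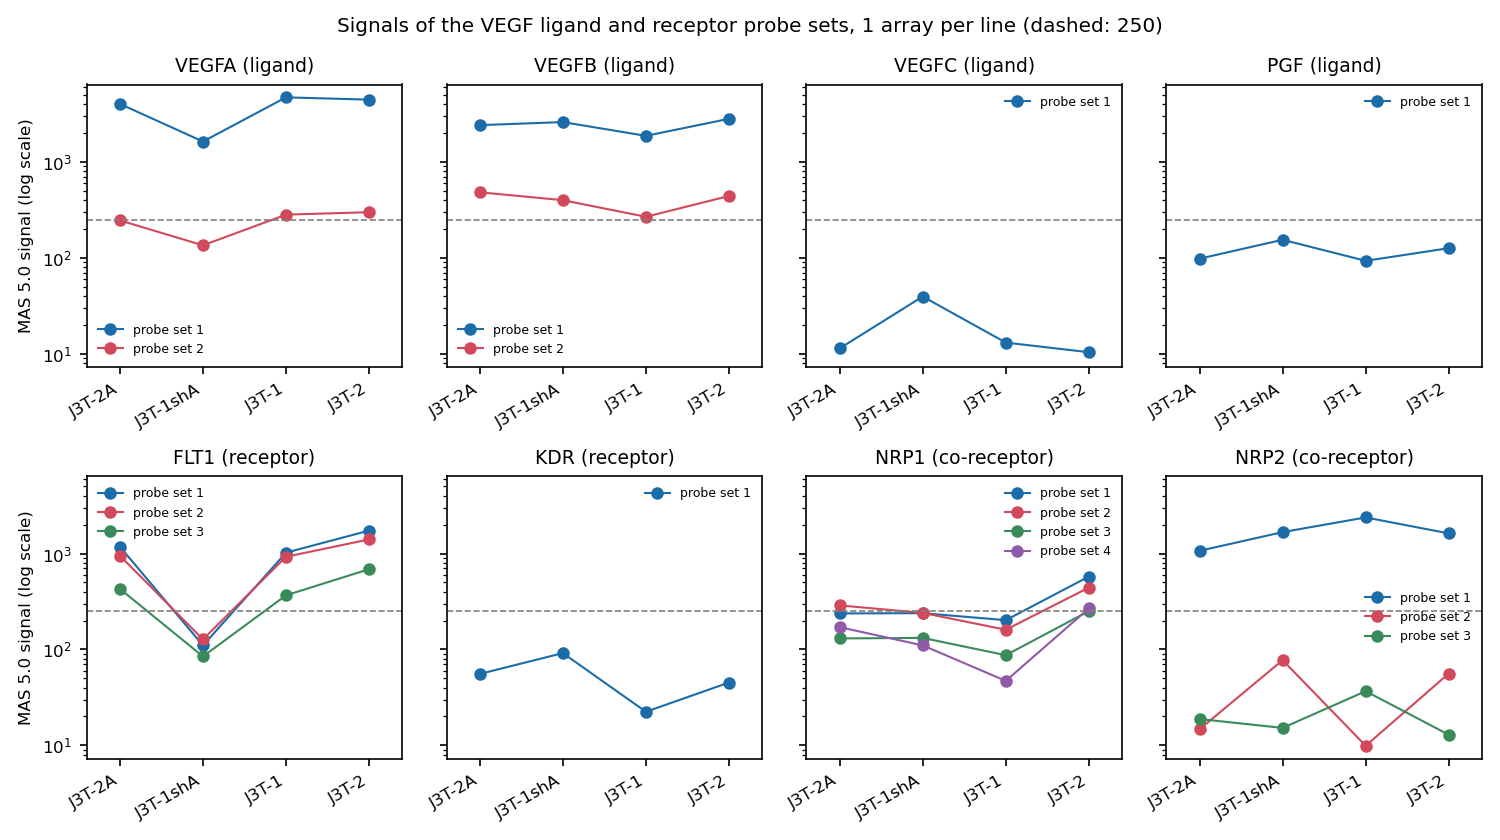
MAS 5.0 signal (log axis) of each of the 17 probe sets on the arrays labelled J3T-2A, J3T-1shA, J3T-1 and J3T-2, 1 array per line, with the limit of 250 dashed and lines joining the points of a probe set. VEGFA and FLT1 dip on the array labelled J3T-1shA (1634.6 and 110.1 by the first probe sets), NRP1 peaks on that labelled J3T-2 (575.9), and VEGFC, PGF and KDR stay under 250.

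Overexpression of ANXA2 was compared as J3T-2A over J3T-2. Of the 8 genes, 5 could be read, NRP1 was over 2-fold lower and none was over 2-fold higher, where 2.10% of all 6860 readable genes were over 2-fold lower. Among probe sets, 1 of 12 readable ones was over 2-fold lower, against 1.85% of all. The NRP1 signal was 2.43-fold lower by the first probe set, and by the others it was 1.53-fold, 1.93-fold and 1.57-fold lower. NRP1 was over 2-fold lower by its first probe set alone, which could be read through the array labelled J3T-2 alone and was 2.30-fold lower with the J3T-2A signal raised to 250. The 1 NRP1 probe set that reached 250 on both arrays was the 1.53-fold one. FLT1 was 1.47-fold, 1.48-fold and 1.60-fold lower by its probe sets, and NRP2 was 1.52-fold lower. VEGFA was 1.11-fold and 1.22-fold lower, and VEGFB had log2 ratios of -0.22 and 0.13, so these ligands did not differ beyond the spread. The median log2 ratio of the 5 genes was -0.56, beside -0.003 over all readable genes. It leaves out VEGFC, PGF and KDR, which could not be read. NRP1 entered it through the array labelled J3T-2 alone, so this median adds no support.

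Silencing of ANXA2 was compared as J3T-1shA over J3T-1. Of the 8 genes, 4 could be read, and VEGFA and FLT1 were over 2-fold lower, where 3.80% of all 6944 readable genes were. Among probe sets, 5 of 8 readable ones were over 2-fold lower, against 3.48% of all, and these were both probe sets of VEGFA and all 3 of FLT1. Of these 5, 4 could be read through the array labelled J3T-1 alone, so their count adds no support. The first VEGFA probe set, read on both arrays, was 2.89-fold lower. The second was 2.09-fold lower as deposited and 1.13-fold lower with the J3T-1shA signal raised to 250. FLT1 was 9.27-fold, 7.27-fold and 4.34-fold lower as deposited, against J3T-1shA signals of 84.5 to 127.3. With these raised to 250 it was 4.08-fold, 3.70-fold and 1.47-fold lower. NRP2 was 1.42-fold lower and VEGFB 1.39-fold and 1.49-fold higher, none of them beyond the spread. NRP1 could not be read on either array, with 238.8 for J3T-1shA against 201.9 for J3T-1. The median log2 ratio of the 4 genes was -1.02, beside -0.03 over all readable genes. It leaves out VEGFC, PGF, KDR and NRP1, which could not be read. FLT1 entered it through the array labelled J3T-1 alone, so this median adds no support.

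The parental lines were compared as J3T-1 over J3T-2. NRP1 was over 2-fold lower and the only one of 5 readable genes past 2-fold, where 4.05% of 6967 genes were over 2-fold lower. Among probe sets 4 of 12 were, all of NRP1, against 4.36% of all. All 4 could be read through the array labelled J3T-2 alone, so their count adds no support. As deposited they were 2.85-fold, 2.75-fold, 2.88-fold and 5.70-fold lower. With the J3T-1 signals raised to 250 the first and second were 2.30-fold and 1.77-fold lower, and the other 2, with J3T-2 signals just over the limit, at most 1.07-fold. FLT1 was 1.70-fold, 1.52-fold and 1.87-fold lower in J3T-1, beyond the spread by the first and dimmest probe sets. VEGFA was level, with log2 ratios of 0.08 and -0.09 by its 2 probe sets. VEGFB was 1.51-fold and 1.65-fold lower, and NRP2 1.47-fold higher.

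The remaining 3 pairs reuse the same 4 arrays and so are no further evidence. In J3T-1shA over J3T-2, VEGFA (2.73-fold), FLT1 (15.8-fold) and NRP1 (2.41-fold) of 5 readable genes were over 2-fold lower, where 5.31% of 7012 genes were, and so were 7 of 12 probe sets, against 5.11% of all. Both probe sets of VEGFA, all 3 of FLT1 and 2 of 4 of NRP1 made up the 7. Of these, 6 could be read through the array labelled J3T-2 alone, so their count adds no support. With J3T-1shA signals under 250 raised to 250, 5 of the 7 were over 2-fold lower. The first probe set of FLT1 was then 6.94-fold and that of NRP1 2.30-fold lower. The second VEGFA probe set was 1.2-fold and the fourth NRP1 probe set 1.07-fold lower. In J3T-2A over J3T-1, NRP2 of 4 readable genes was 2.23-fold lower, where 1.94% of 6850 genes were over 2-fold lower, and it was 1 of 9 readable probe sets, against 1.88% of all. VEGFA (log2 -0.23) and FLT1 (log2 0.21) were within the spread between these lines, which the authors both report as high in ANXA2. VEGFB was 1.29-fold and 1.80-fold higher by its probe sets, beyond the spread by the second alone. In J3T-2A over J3T-1shA, VEGFA (2.47-fold) and FLT1 (10.7-fold) of 4 readable genes were over 2-fold higher, where 3.11% of 6846 genes were, with 4 of 8 probe sets against 2.92% of all. Of these 4, the 3 of FLT1 could be read through the array labelled J3T-2A alone, so their count adds no support. With the J3T-1shA signals raised to 250, FLT1 was 4.72-fold, 3.80-fold and 1.71-fold higher by its probe sets. The second VEGFA probe set, 1.82-fold higher, was under the limit on both arrays of this pair.

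**Figure D2:**
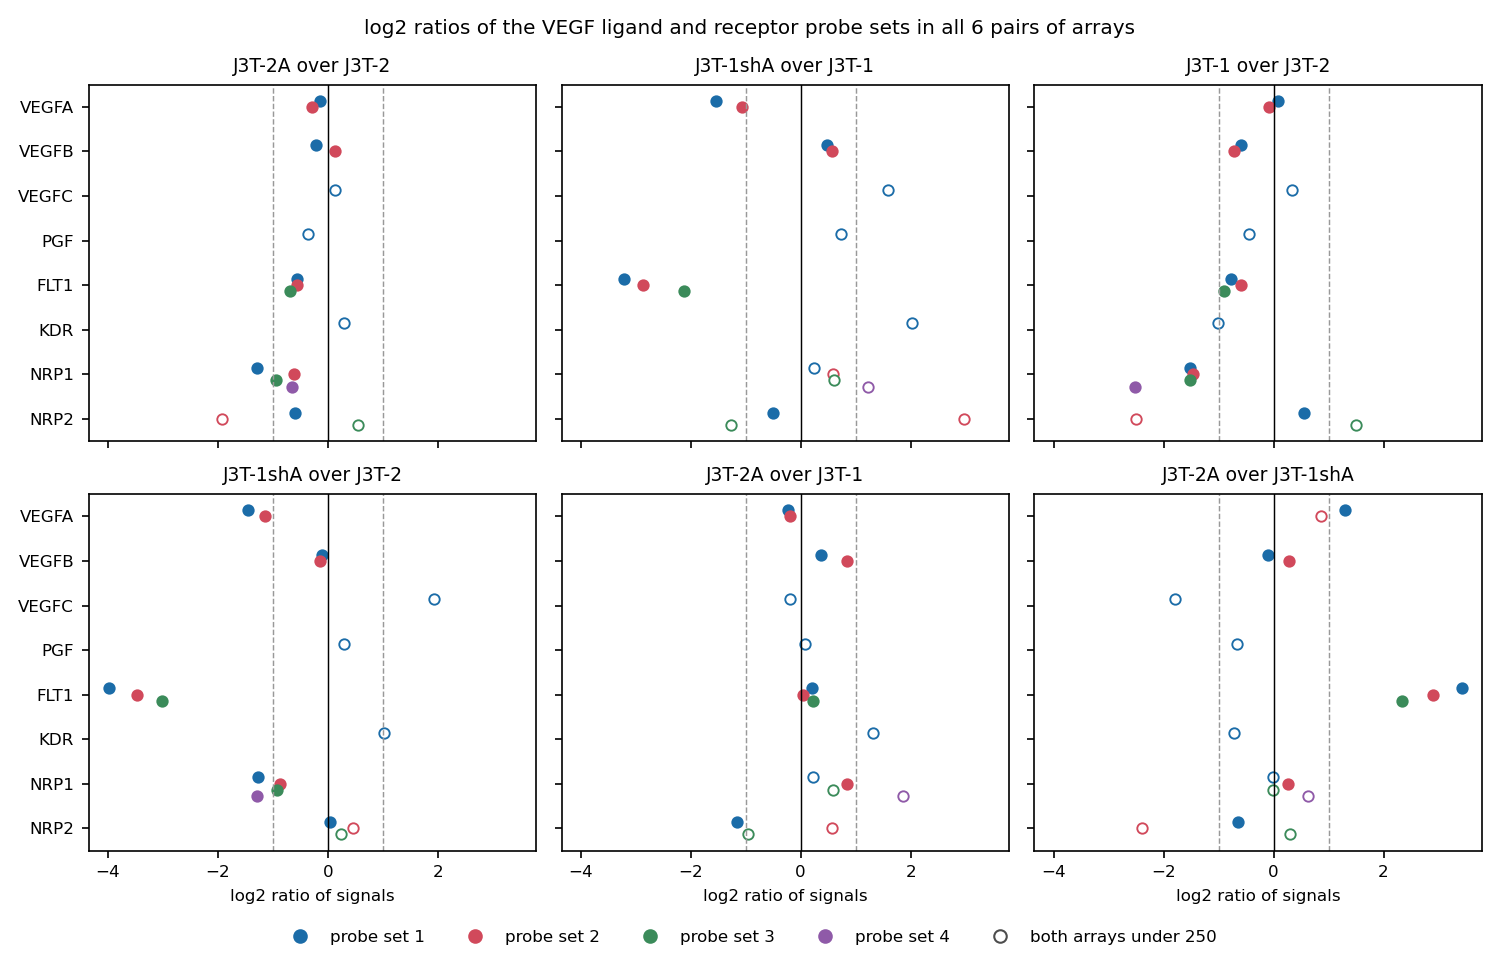
log2 ratio of signals (x axis) of each probe set, by gene (y axis), in all 6 pairs of arrays, with dashed lines at 2-fold, filled points where at least 1 array reached 250 and open points where neither did. FLT1 lies past 2-fold in each of the 3 pairs with the array labelled J3T-1shA and in none of the others, and NRP1 lies left of 0 by all 4 probe sets in each pair that sets a line over J3T-2.

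The pairs J3T-2A over J3T-2 and J3T-1shA over J3T-1 share no array, and 4 of the 8 genes could be read in both. By their first probe sets VEGFA, FLT1 and NRP2 had ratios under 1 in both, as did 29.2% of all genes readable in both, and VEGFB a ratio under 1 in the first and over 1 in the second. None of them was over 2-fold lower in both pairs, where 23 of the 6563 genes readable in both were. The log2 ratios were -0.15 and -1.53 for VEGFA, -0.56 and -3.21 for FLT1, and -0.60 and -0.51 for NRP2. By these probe sets 1 of the 2 ratios of each gene was within the spread, so no shared direction was resolved. This was the ratio of J3T-2A over J3T-2 for VEGFA and FLT1 and of J3T-1shA over J3T-1 for NRP2. The dimmest FLT1 probe set was lower beyond the spread in both pairs (log2 -0.68 and -2.12), with J3T-1shA under the limit. The second FLT1 probe set was within the spread in J3T-2A over J3T-2 (log2 -0.56). With 1 array per line, the difference between the pairs was not tested.

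**Figure D3:**
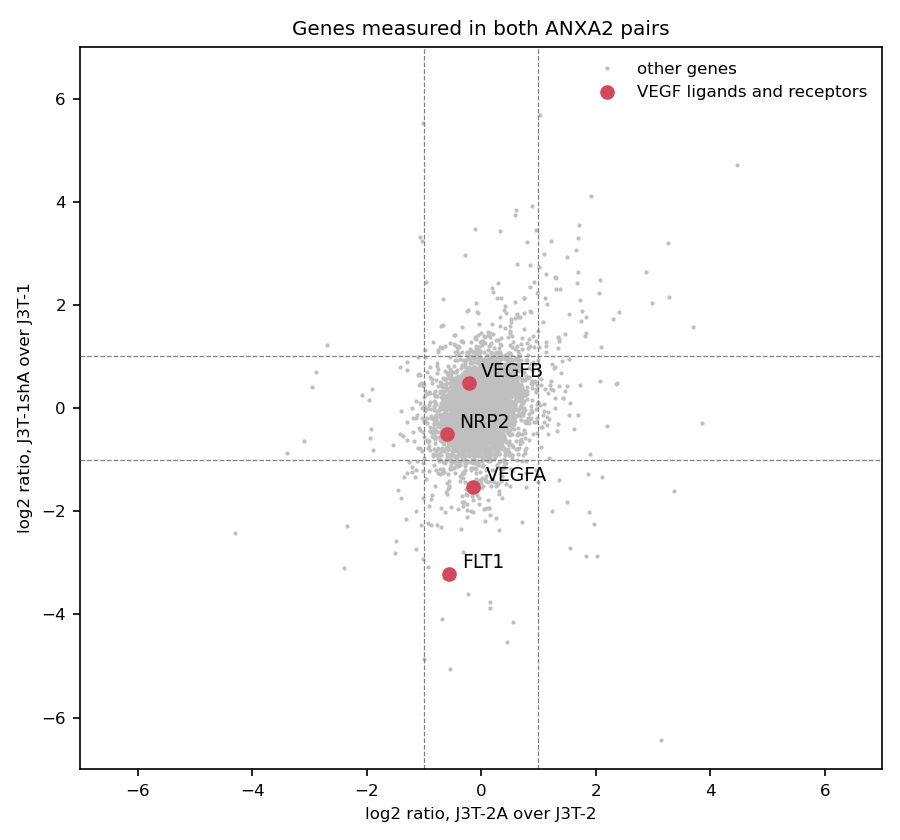
log2 ratio of J3T-2A over J3T-2 (x axis) and of J3T-1shA over J3T-1 (y axis) for the 6563 genes readable in both pairs, each by its first probe set (grey), with VEGFA, VEGFB, FLT1 and NRP2 in red and dashed lines at 2-fold. FLT1 (-0.56 and -3.21) and VEGFA (-0.15 and -1.53) lie below the lower dashed line and between the vertical ones.

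Genes around the VEGF system were taken from 4 lists, of other ligands, receptors and co-receptors, of receptor signal transduction, of regulators of VEGFA and of hypoxia targets. In J3T-2A over J3T-2, 1.69% of all readable genes were over 2-fold higher. Of 13 readable genes on the first list, 2 were over 2-fold higher and 1 over 2-fold lower (median log2 0.41). SEMA3C, a semaphorin that binds both neuropilins, had 253.2 for J3T-2A against 76.1 for J3T-2. SDC2, a heparan sulfate proteoglycan of the cell surface, had 5971.9 for J3T-2A against 1934.6 for J3T-2, and its 2 further probe sets were also over 2-fold higher. SEMA3F, the semaphorin of NRP2, had 161.0 for J3T-2A against 408.1 for J3T-2. The other 10 readable genes of this list, among them PLXND1, GIPC1, SDC4, HSPG2, CD44, ITGAV, ITGB3 and ITGB5, were within 2-fold. Genes under the limit on both arrays were not read, among them SDC1 with 241.5 for J3T-2A against 22.8 for J3T-2.

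Of 23 signal transduction genes readable in J3T-2A over J3T-2, RCAN1, an inhibitor of calcineurin that VEGF induces in endothelium, was over 2-fold higher (627.1 against 245.8), with no gene past 2-fold in the lower direction and a median log2 ratio of -0.001. Of 16 regulators of VEGFA, the transcription factor gene FOS was over 2-fold lower (418.9 against 1044.9), with no gene past 2-fold in the higher direction and a median log2 ratio of -0.08. HIF1A, the oxygen-regulated activator of VEGFA, had a log2 ratio of -0.17. Of 16 hypoxia targets, 3 were over 2-fold higher and 1 over 2-fold lower (median log2 0.10). The vasodilator gene ADM was 4.22-fold higher, the collagen cross-linking gene LOX 2.63-fold and the glycolytic regulator PFKFB3 2.20-fold, whereas NDRG1 was 2.01-fold lower.

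In J3T-1shA over J3T-1, 4.26% of all readable genes were over 2-fold higher. Of 13 readable genes on the list of other ligands, receptors and co-receptors, 2 were over 2-fold higher and 3 over 2-fold lower (median log2 -0.41). SEMA3A, the semaphorin that competes for NRP1, had 30.4 for J3T-1shA against 535.8 for J3T-1, and PLXND1, a plexin that receives semaphorins, had 267.1 against 766.3. SEMA3F had 111.8 for J3T-1shA against 282.3 for J3T-1. SEMA3C was higher, at 478.3 against 148.7, and so was the proteoglycan gene SDC1, at 480.8 against 128.4. SEMA3A, SEMA3F, SEMA3C and SDC1 were under the limit on the dimmer array of this pair, as were SEMA3C and SEMA3F in J3T-2A over J3T-2. With signals under 250 raised to 250, SEMA3A was 2.14-fold lower in this pair, and SEMA3F (1.13-fold), SEMA3C (1.91-fold) and SDC1 (1.92-fold) were within 2-fold, as were SEMA3C (1.01-fold) and SEMA3F (1.63-fold) in J3T-2A over J3T-2.

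Of 28 signal transduction genes readable in J3T-1shA over J3T-1, 2 were over 2-fold higher and 2 over 2-fold lower (median log2 -0.12). RCAN1 had 1223.9 against 496.4, and NCK2, an adaptor of receptor kinases, had 445.7 against 176.1. The ERK phosphatase gene DUSP5 had 230.5 against 529.6, and PIK3R1, the regulatory subunit of a phosphoinositide kinase, had 489.5 against 1027.3. Of 19 regulators of VEGFA, 1 was over 2-fold higher and 2 over 2-fold lower (median log2 0.01). EPAS1, a hypoxia-inducible factor that like HIF1A activates VEGFA, had 505.2 against 127.8. The immediate early genes EGR1 and FOS were lower, EGR1 with 106.0 against 1043.5 and FOS with 153.3 against 681.6, which was 4.17-fold and 2.73-fold with the J3T-1shA signals raised to 250. In all, 9 of the 14 list genes over 2-fold in this pair were under the limit on the dimmer array, and 10 of the 14 were over 2-fold with such signals raised to 250, NCK2 (1.78-fold) not among them. HIF1A had a log2 ratio of -0.34 and STAT3 of 0.58. Of 15 hypoxia targets, PFKFB3 was 2.12-fold higher and DDIT4 2.41-fold lower (median log2 -0.08), but a second DDIT4 probe set was within 2-fold (log2 -0.65). By their first probe sets, the other 13 hypoxia targets were within 2-fold, among them CA9, SLC2A1, PGK1, LDHA, ENO1, ALDOA and PDK1. The relation of this list to the VEGFA signal was not tested.

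**Figure D4:**
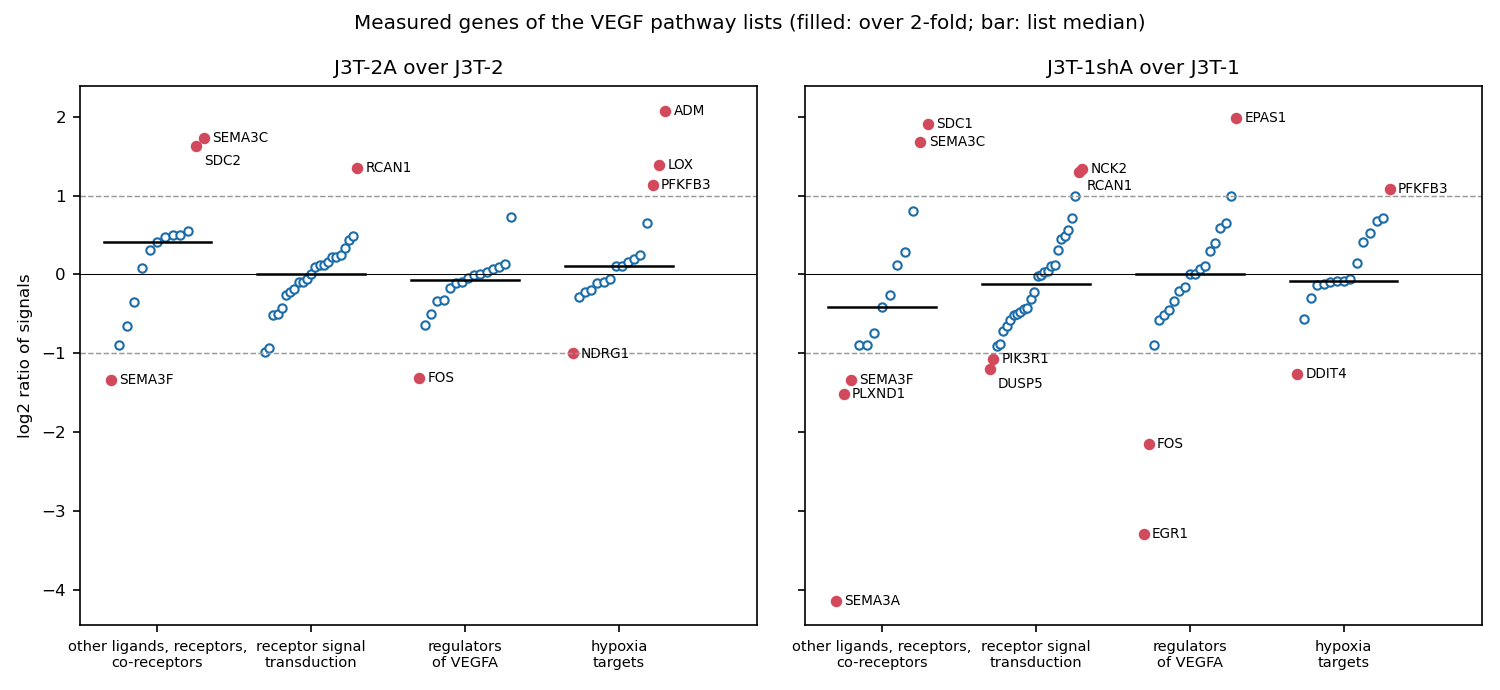
log2 ratio of signals (y axis) of the readable genes of the 4 lists (x axis) in J3T-2A over J3T-2 (left) and J3T-1shA over J3T-1 (right), with genes past 2-fold filled and named, list medians as bars and dashed lines at 2-fold. ADM (2.08) and SDC2 (1.63) stand high in the left panel; SEMA3A (-4.14), EGR1 (-3.30) and FOS (-2.15) stand low in the right one, where their J3T-1shA signals were under 250 and so have no order.

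Between the parental lines, J3T-1 over J3T-2, 2.94% of all readable genes were over 2-fold higher. On the list of other ligands, receptors and co-receptors, 3 of 12 readable genes were over 2-fold higher and 2 over 2-fold lower (median log2 0.22). PLXND1 had 766.3 for J3T-1 against 199.8 for J3T-2, SDC2 had 7794.8 against 1934.6, and GIPC1, a scaffold that binds the tail of NRP1, had 811.7 against 348.7. SEMA3B and ITGB3, an integrin subunit that associates with KDR, were over 2-fold lower, ITGB3 with 238.3 against 753.6. Of 26 signal transduction genes, RCAN1 was over 2-fold higher and PRKD1, a kinase downstream of KDR, over 2-fold lower (755.4 against 2018.3). Of 18 regulators of VEGFA, TFAP2A was over 2-fold higher (392.8 against 163.5), and of 16 hypoxia targets ADM and LOX were over 2-fold higher and NDRG1 over 2-fold lower. Of the 11 list genes over 2-fold in this pair, 8 were so with signals under 250 raised to 250, and SEMA3B (1.03-fold), RCAN1 (1.99-fold) and TFAP2A (1.57-fold) were not. VEGFA itself was level between these lines.

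Genes with the most similar pattern over the 4 arrays were sought among 7241 genes, by the distance between log2 signals centred on each gene's mean. With 4 arrays a close match is a description of these arrays. For VEGFA the nearest were GLT1D1 (distance 0.09), JADE2 (0.12) and UPP1 (0.13), and UPP1, uridine phosphorylase, had 12562.7 for J3T-2A, 4918.8 for J3T-1shA, 14559.6 for J3T-1 and 15125.6 for J3T-2. For FLT1 they were the ganglioside synthase gene ST8SIA1 (0.37), the cytokine receptor gene IL15RA (0.64) and EGR1 (0.65). ST8SIA1 had 547.5 for J3T-2A, 39.6 for J3T-1shA, 483.6 for J3T-1 and 640.7 for J3T-2, and like FLT1, IL15RA (21.0) and EGR1 (106.0) it was under the limit for J3T-1shA, so the depth of the dip and these distances were not measured well. Genes were picked for the pattern, which is therefore no further result. For NRP1 the nearest were VGLL4 (0.24), ARID5B (0.24) and SYNE3 (0.26), each brightest for J3T-2, with VGLL4 at 531.0 to 723.0 on the other arrays and 1390.0 on that one. For NRP2 they were LACTB (0.03), LRCH1 (0.12) and RNLS (0.13), which had signals of 156.2 to 476.8 over the arrays. GLT1D1, ARID5B, SYNE3, LACTB, LRCH1 and RNLS were also under the limit on at least 1 array, as was NRP1. Distances that involve these genes were likewise not measured well.

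**Figure D5:**
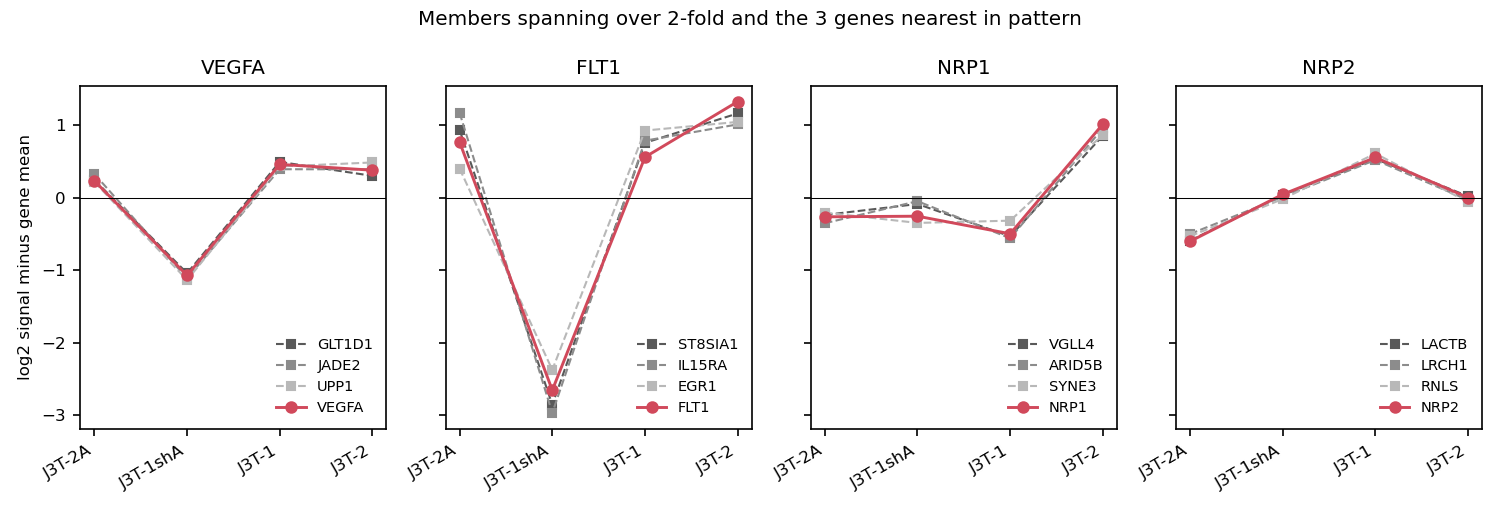
log2 signal minus the gene's mean over the arrays (y axis) on the arrays labelled J3T-2A, J3T-1shA, J3T-1 and J3T-2 for VEGFA, FLT1, NRP1 and NRP2 (red) and the 3 genes nearest to each in pattern (grey squares). VEGFA and FLT1 and their neighbours dip at J3T-1shA, and NRP1 and its neighbours peak at J3T-2.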

How the data were processed

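Total RNA of each line was hybridized to a GeneChip Canine Genome 2.0 array, and the authors derived 1 intensity per probe set with MAS 5.0, each array on its own, at default settings with global scaling. The deposited intensities are linear and come with no detection calls. The methods give a trimmed mean of 100, whereas the deposited columns had 495.8 to 496.0 after removal of 2% at each end, so the limit of 250 and the pseudocount of 80 refer to the deposited scale. Of 42924 probe sets, 29254 had 1 gene symbol, 439 several and 13231 were not listed. No genome build is given in the sources used here, so no positions are stated. Ratios were taken between the deposited signals in Python 3.11.15 with pandas 2.3.3, and log2 ratios checked on simulated signals. A probe set was readable in a pair where the brighter array reached 250 and different at a ratio over 2. Named genes were the 8 genes, ANXA2, list genes over 2-fold in either ANXA2 pair, the other genes of the receptor list, and the 3 genes nearest in pattern. HIF1A, STAT3, PRKD1, TFAP2A and the hypoxia targets within 2-fold were named after their values were seen. Genes and lists were chosen with earlier results of these data known. The change p-value of the methods needs probe-level data and was not used here. Alternatives were other signal limits, quantile normalization, median centring, a pseudocount, and the median of the probe sets.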

Additional observations from a re-analysis of the deposited data

Results flagged for a closer look

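VEGFA, FLT1 and NRP2 were singled out by the sign of their ratios. Set against the reported ANXA2 state, these run opposite ways in the J3T-2 and J3T-1 backgrounds. For J3T-2A over J3T-2 the log2 ratio of VEGFA was -0.15, and for J3T-1shA over J3T-1 it was -1.53. FLT1 had -0.56 for J3T-2A over J3T-2 and -3.21 for J3T-1shA over J3T-1. NRP2 had -0.60 for J3T-2A over J3T-2 and -0.51 for J3T-1shA over J3T-1. By the first probe sets, the ratios of VEGFA and FLT1 in J3T-2A over J3T-2 and of NRP2 in J3T-1shA over J3T-1 were within the spread between probe sets. By these, 1 of the 2 directions was unresolved for each gene. The dimmest FLT1 probe set was beyond the spread in both pairs (log2 -0.68 and -2.12), with J3T-1shA under the limit. The difference between backgrounds was not tested, since each ratio comes from 1 array per line.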

How the results depend on the processing

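No paired analysis was possible because each line has 1 array and no ratio carries a test. Under 8 alternatives, 0 of 204 recomputed single-gene log2 ratios reversed a difference over 2-fold, and 197 stayed within 1 SD of the spread described above. The 7 that moved further were NRP1 in J3T-2A over J3T-2 with the median of its probe sets (-0.77) and FLT1 in the pairs with J3T-1shA. With a pseudocount of 80, FLT1 had -2.53 for J3T-1shA over J3T-1, -3.26 for J3T-1shA over J3T-2 and 2.73 for J3T-2A over J3T-1shA, and with signals under 250 raised to 250, added after seeing the data, -2.03, -2.80 and 2.24 in the same pairs. The number of genes over 2-fold different stayed within 1.5 times in 37 of 48 recomputed counts. With no signal limit it was 4 in J3T-1shA over J3T-1 and 5 in J3T-1shA over J3T-2, where KDR and VEGFC were added, and 2 in J3T-1 over J3T-2 and 2 in J3T-2A over J3T-1, where KDR was added. With both arrays required at 250 it was 0 in J3T-2A over J3T-2 and in J3T-1 over J3T-2, where NRP1 was no longer counted, and 1, VEGFA, in each pair with J3T-1shA. Where the median over probe sets stood for a gene, it was 0 in J3T-2A over J3T-2 and 0 in J3T-2A over J3T-1, and NRP1 was no longer over 2-fold lower in J3T-1shA over J3T-2 (log2 -0.95). Median log2 ratios of all readable genes lay between -0.06 and 0.04 under every setting.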
